A study of Homo sapiens with 6 samples.

Results

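The subject here is a set of 10 genes, the CDK inhibitor genes *CDKN1A*, *CDKN1B*, *CDKN1C*, *CDKN2A*, *CDKN2B*, *CDKN2C*, and *CDKN2D* and the D-type cyclin genes *CCND1*, *CCND2*, and *CCND3*. They were taken by gene name from a table of 60623 genes, and all 10 passed the expression filter that left 13966 genes for testing. The cells were TC28a2, an immortalized human chondrocyte line, exposed for 24 hours to 2 μM mocetinostat, an inhibitor of class I histone deacetylases (HDACs), or to its solvent DMSO. There were 3 RNA-Seq libraries per treatment, described in the study as independent experiments. All of them come from a single line, immortalized with the large T antigen of SV40, a viral protein known to bind the RB family proteins. In bulk RNA of this kind, a gene read from fewer cells cannot be told apart from less RNA per cell.

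A cell commits to DNA synthesis when cyclin-dependent kinases (CDKs) phosphorylate the retinoblastoma protein RB and release E2F transcription factors. D-type cyclins activate CDK4 and CDK6, and cyclins E and A activate CDK2. The INK4 inhibitors (the *CDKN2* genes) bind CDK4 and CDK6, whereas the CIP/KIP inhibitors (the *CDKN1* genes) bind cyclin-CDK complexes, block CDK2, and can also help D cyclins assemble with CDK4. *CDKN1A* is well known for its response to HDAC inhibitors in many cell types, which has been tied to GC boxes in its promoter.

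Total counts ranged from 4873426 to 11031132 with DMSO and from 1619344 to 5089542 with mocetinostat, so that 1 read was worth between 0.0905 and 0.208 CPM in the DMSO libraries and between 0.198 and 0.620 CPM in the mocetinostat libraries. CPM, the read count relative to library size, was scaled by edgeR's TMM method, and log2 fold changes are mocetinostat relative to DMSO. A gene is said to have risen or fallen where edgeR's quasi-likelihood test gave a Benjamini-Hochberg adjusted p under 0.05 over all genes tested; it is called a URG or DRG where its log2 fold change was also over 1 or under -1. *SOX9*, a defining chondrocyte factor, stood at 106.4 ± 13.6 CPM with DMSO (SD, n = 3), but *COL2A1*, *ACAN*, and *COMP* were at or below 4.72 CPM there. Of 11 chondrocyte markers, 7 were tested and all 7 rose, against 32.9% of all genes tested. Among them, *SOX5* (1, 0, and 5 counts with DMSO) and *COMP* (3, 0, and 8) passed the expression filter only through the mocetinostat libraries. For such genes a rise was close to given. The summed level of the 11 chondrocyte markers was between 112.7 and 137.02 CPM with DMSO and between 256.9 and 294.8 CPM with mocetinostat. *COL9A1* was at 0 in DMSO replicate 1 and in mocetinostat replicate 2. Markers of other lineages also rose (4 of the 4 epithelial, 1 of the 1 haematopoietic, and 3 of the 4 endothelial markers tested), while the T cell marker *CD3E* was at 0 in every library. Several of these, such as *CDH1* (3, 1, and 2 counts with DMSO) and *KDR* (1, 3, and 2), passed the filter in the same way. The marker counts are therefore a description and no test. The part of these changes in the results for the CDK inhibitors and D cyclins was not tested.

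Of the 10 genes, 7 rose and 2 fell, against backgrounds of 32.9% and 31.4% of all genes tested (64.3% in either direction). The URGs were *CDKN1A*, *CDKN1C*, *CDKN2B*, *CDKN2D*, and *CCND2*, that is 5 of 10 genes against 20.2% of all genes. Among them, *CCND2* (1, 3, and 0 counts with DMSO) passed the expression filter only through the mocetinostat libraries. Its rise was therefore close to given and adds no support to these counts. The only DRG was *CDKN2C*, against 8.18% of all genes. *CCND1* and *CCND3* rose and *CDKN1B* fell by less than that threshold, and *CDKN2A* alone did not pass the test. The 3 mocetinostat samples lay above the 3 DMSO samples in the 7 genes that rose (33.7% of all genes) and below them in the 2 that fell (32.8% of all genes). With 3 samples against 3, an exact two-sided permutation test of a single gene cannot give a p below 0.1, so the tests here rest on the fit over all genes.

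The choice of scaling bears on the smaller changes. *GAPDH*, a glycolytic enzyme gene often used as a reference, went from 3039 ± 89.8 to 2111 ± 76.3 CPM (SD, n = 3); the log2 fold change was -0.53. Scaling each library to its *GAPDH* count therefore raised the median log2 fold change of all genes by 0.54, and fitting without the expression filter lowered it by 0.25 among the genes tested here. Changes are given relative to the typical gene, as TMM sets it. Relative to *GAPDH*, 8 of the 10 genes rose and 1 fell.

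**Figure D1:**
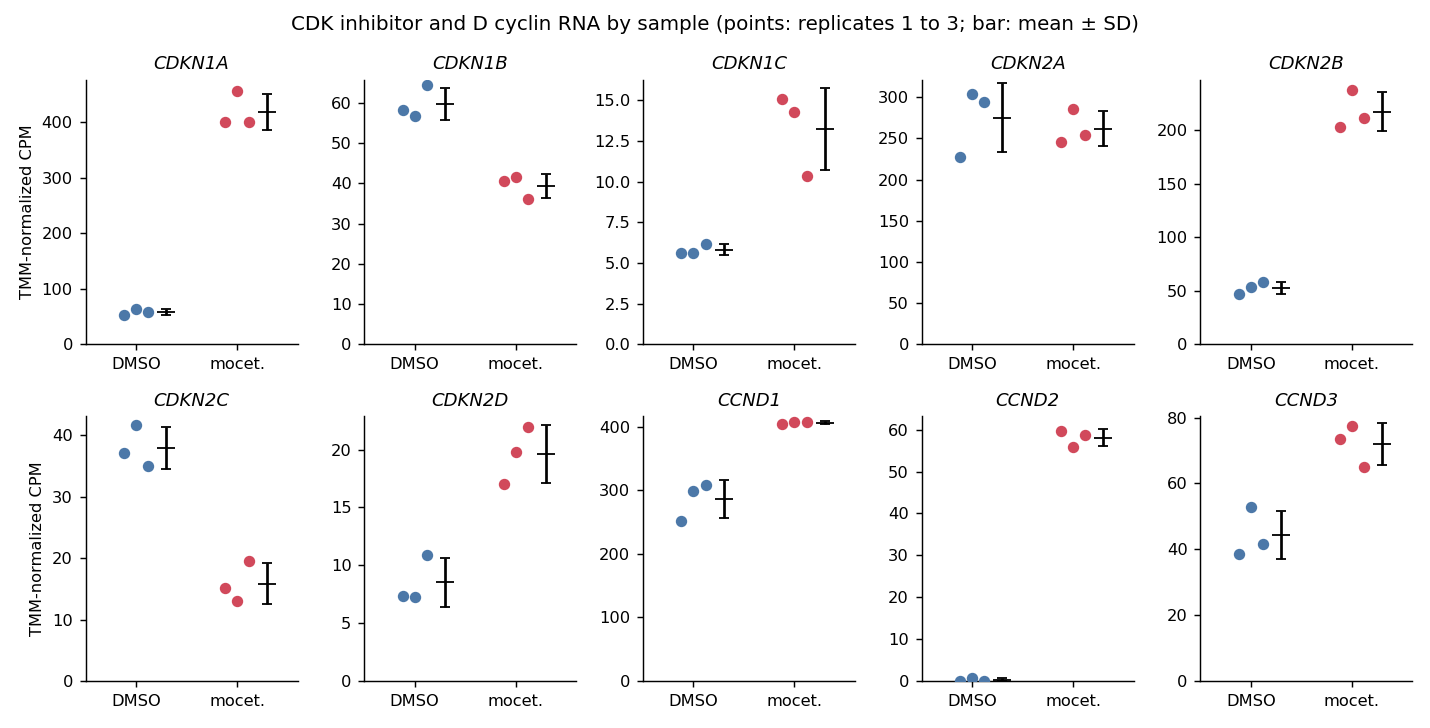
TMM-normalized CPM (vertical axis, linear from 0, a separate scale per gene) of the 10 genes in the 3 DMSO and the 3 mocetinostat samples; points are replicates 1 to 3 from left to right and black bars the mean ± SD. The samples of the 2 treatments overlap in *CDKN2A* and in no other gene, and *CCND2* lies at 0.625 CPM or less in every DMSO sample.

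The CIP/KIP genes moved apart. *CDKN1A* encodes p21, and lies on the plus strand of chromosome 6 of GRCh38 from 36676460 to 36687337 (ENSG00000124762). The DMSO libraries, in the order of their replicate numbers, gave 585, 303, and 395 reads and the mocetinostat libraries 2020, 737, and 968, so that even before scaling every mocetinostat library held more reads of it than any DMSO library. Normalized, this was 52.9, 63.1, and 58.2 CPM against 400.5, 456.7, and 401.2 CPM. The fitted log2 change was 2.86 (SE 0.09, edgeR adjusted p = 4.06e-40), a 7.25-fold rise with a 95% interval from 6.38 to 8.24. By p, *CDKN1A* ranked 16 among the 13966 genes tested; by size, 7.1% of the genes tested rose more. Over all 15 alternative settings its log2 fold change stayed between 2.60 and 3.38.

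*CDKN1B* encodes p27, the inhibitor best known for its build-up in resting cells (ENSG00000111276, chromosome 12 from 12685498 to 12722369). Its level was 58.3, 56.8, and 64.4 CPM in DMSO replicates 1, 2, and 3 and 40.6, 41.5, and 36.1 CPM in the mocetinostat replicates. With DMSO its CPM was thus close to that of *CDKN1A*, and each mocetinostat sample lay below all DMSO samples. Its change on the log2 scale was -0.60 (SE 0.13, edgeR adjusted p = 6.78e-05), or 1.52-fold lower. Relative to *GAPDH* the change was -0.07 with an adjusted p of 0.686, so the fall depended on the scaling; the difference from *CDKN1A* within each library does not.

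*CDKN1C* encodes p57, an imprinted inhibitor of fetal tissues and of cartilage growth (ENSG00000129757, chromosome 11 from 2883213 to 2885775, minus strand). It was the scarcest of these inhibitor genes in reads, with 62, 27, and 42 reads from the DMSO libraries and 76, 23, and 25 from the mocetinostat libraries. These counts correspond to 5.61, 5.62, and 6.19 CPM with DMSO and 15.1, 14.3, and 10.4 CPM with mocetinostat. The groups did not overlap, but mocetinostat replicate 3 stood nearer to the DMSO samples. On the log2 scale the difference was 1.20 (SE 0.28, 95% interval 0.65 to 1.76, edgeR adjusted p = 0.000114). With every library thinned down to the shallowest it was 1.61 with an adjusted p of 0.0531, so that this depth no longer carried the call.

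Among the INK4 genes, *CDKN2B* rose, *CDKN2D* rose from a low level, *CDKN2C* fell, and *CDKN2A* did not pass the test. *CDKN2B* encodes p15, an inhibitor known to respond to TGF-β (ENSG00000147883, chromosome 9 from 22002903 to 22009305, minus strand). Its reads numbered 516, 257, and 391 under DMSO and 1021, 383, and 509 under mocetinostat. This was 46.7, 53.5, and 57.6 CPM against 202.4, 237.3, and 210.9 CPM, with every mocetinostat sample far above the DMSO samples. In the fit, the log2 difference was 2.04 (SE 0.10, edgeR adjusted p = 1.42e-28), a 4.12-fold rise with a 95% interval from 3.57 to 4.75. It kept this call in all 15 alternatives, between 1.79 and 2.57.

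*CDKN2A* lies 7602 bases from *CDKN2B* on the same strand (ENSG00000147889, chromosome 9 from 21967752 to 21995301). It encodes p16INK4a and, from another first exon, p14ARF, which these gene-level counts do not separate. Levels were 227.3, 303.6, and 294.6 CPM with DMSO and 245.8, 286.3, and 254.05 CPM with mocetinostat, so that the groups overlapped, DMSO replicate 1 being the lowest of all samples. The estimated log2 change was -0.07 (SE 0.09, edgeR adjusted p = 0.475), with a 95% interval from -0.25 to 0.10; changes of the size seen in *CDKN2B* lie outside that interval. Without DMSO replicate 1 the log2 fold change was -0.22 with an adjusted p of 0.00508, and relative to *GAPDH* it was 0.45. Exons of the antisense RNA *CDKN2B-AS1* cover 15.3% of the exon bases of *CDKN2A*, and whether the counting used strand is not stated. *CDKN2B-AS1* had at most 258 counts in a library, against at least 462 for *CDKN2A*, and itself fell (log2 fold change -0.77, edgeR adjusted p = 0.000493). That fall did not pass relative to *GAPDH* (-0.24, edgeR adjusted p = 0.313) or with libraries thinned to the smallest total (-0.60, edgeR adjusted p = 0.194).

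*CDKN2C* encodes p18, an INK4 inhibitor whose gene is itself E2F-responsive (ENSG00000123080, chromosome 1 from 50960745 to 50974634). It went from 37.2, 41.6, and 35.1 CPM in DMSO replicates 1, 2, and 3 to 15.1, 13.0, and 19.5 CPM in the mocetinostat replicates. All mocetinostat samples lay well below the DMSO samples. Relative to DMSO the log2 change was -1.25 (SE 0.18, edgeR adjusted p = 6.87e-09), or 2.37-fold lower. Relative to *GAPDH* it was -0.71 and still passed the test, but no longer as a DRG. An unnamed gene on the opposite strand (ENSG00000290102, not analysed here) covers 20.4% of its exon bases.

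*CDKN2D* encodes p19, the remaining INK4 inhibitor (ENSG00000129355, chromosome 19 from 10566460 to 10569059, minus strand). Its reads numbered 81, 35, and 74 under DMSO and 86, 32, and 53 under mocetinostat. Scaled to depth, it went from 7.33, 7.29, and 10.9 CPM to 17.05, 19.8, and 22.0 CPM, without overlap. The fit gave a log2 change of 1.18 (SE 0.24, 95% interval 0.71 to 1.65, edgeR adjusted p = 1.18e-05). In libraries thinned to the smallest total it was 0.62 with an adjusted p of 0.260, so that the call needed the full depth.

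All 3 D cyclin genes rose, by very different amounts. *CCND2* encodes cyclin D2 (ENSG00000118971, chromosome 12 from 4269771 to 4305353). Only 1, 3, and 0 reads were assigned to it under DMSO, against 301, 90, and 142 under mocetinostat. In CPM, the DMSO samples stood at 0.0905, 0.625, and 0, and the mocetinostat samples at 59.7, 55.8, and 58.8, which differ little from each other. Pooled over libraries, 4 counts with DMSO and 533 with mocetinostat gave a ratio of 333 (95% exact interval 129.1 to 1225, counting error only). The gene passed the expression filter only through the mocetinostat libraries, so a rise was close to given, and its p and rank are a description. The fitted log2 fold change of 8.18 (edgeR adjusted p = 4.98e-34) was the highest of the 10 genes and ranked 15 among all genes tested, but with so few DMSO reads its size depends on the small count that the fit adds. Since 3 of the 4 DMSO reads came from replicate 2, it was 9.49 without that library, and 7.64 and 7.68 without DMSO replicates 1 and 3; the gene passed in each case. In DMSO the gene was close to undetected, since 4 pooled counts allow a level of up to 0.452 CPM. The antisense gene *CCND2-AS1* covers 2.03% of its exon bases and held at most 1 count in a library.

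*CCND1* encodes cyclin D1, a partner of CDK4 and CDK6 that mitogens induce (ENSG00000110092, chromosome 11 from 69641156 to 69654474). Its level was 252.1, 298.8, and 308.3 CPM in DMSO replicates 1, 2, and 3 and 403.8, 407.2, and 408.2 CPM in the mocetinostat replicates. The mocetinostat samples were almost equal, and every one of them exceeded the highest DMSO sample. The fitted log2 change was 0.51 (SE 0.08, edgeR adjusted p = 6.78e-08), a 1.42-fold rise with a 95% interval from 1.27 to 1.59. Exons of *LTO1* on the opposite strand cover 10.4% of its exon bases, and *LTO1* itself was at 23.3 ± 4.33 and 24.8 ± 5.80 CPM (SD, n = 3).

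*CCND3* encodes cyclin D3 (ENSG00000112576, chromosome 6 from 41934934 to 42050357, minus strand). It went from 38.6, 52.7, and 41.7 CPM in the DMSO replicates to 73.4, 77.5, and 65.1 CPM in the mocetinostat replicates. The groups did not overlap. Its change on the log2 scale was 0.71 (SE 0.13, edgeR adjusted p = 2.19e-06), or 1.64-fold. Relative to *GAPDH*, *CCND1* and *CCND3* reached log2 fold changes of 1.03 and 1.24 and were URGs.

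**Figure D2:**
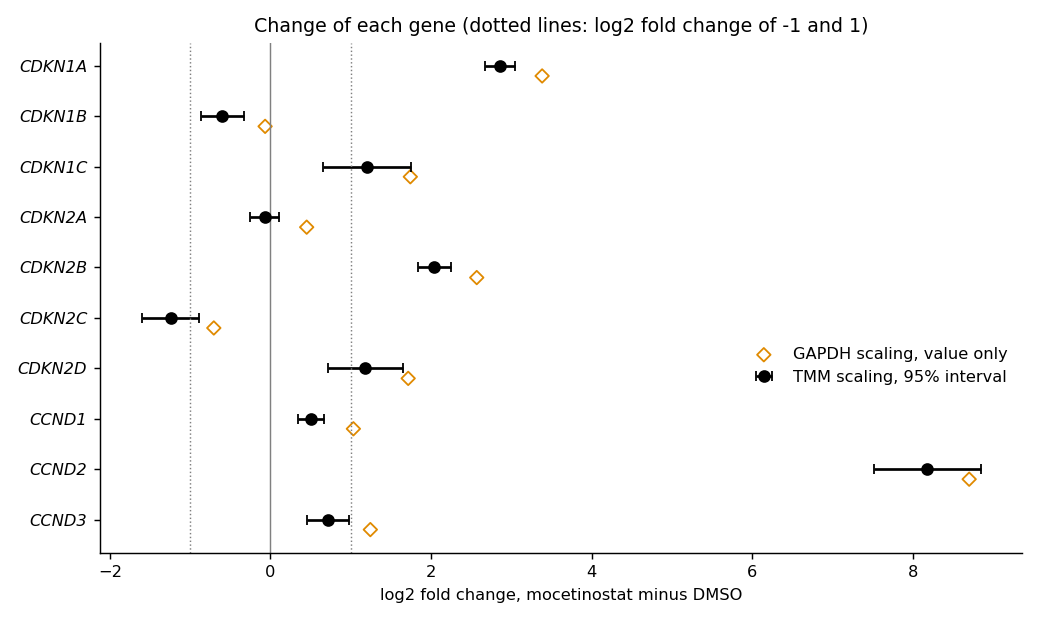
Log2 fold change of each gene (horizontal axis) with its 95% interval from the edgeR fit with TMM scaling (filled circles) and its value with each library scaled to *GAPDH* (open diamonds, no interval). *CDKN2A* is the gene whose interval spans 0, *CDKN1B* moves to -0.07 with *GAPDH* scaling, and *CCND2* stands alone at 8.18.

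To compare levels between genes, CPM was divided by the exon length of each gene in kilobases, giving RPKM. With DMSO, *CDKN2A* (70.8 ± 10.7 RPKM) and *CCND1* (60.2 ± 6.32 RPKM; SD, n = 3) led the 10 genes, and their sample ranges overlapped. *CDKN1A* followed at 19.4 ± 1.70 RPKM, then *CDKN2B* at 13.2 ± 1.38 and *CDKN2C* at 12.6 ± 1.11, whose ranges also overlapped. *CCND3* (7.70 ± 1.28), *CDKN1B* (6.47 ± 0.434), and *CDKN2D* (5.65 ± 1.38) could not be ordered beyond their spread, *CDKN1C* came below them at 2.34 ± 0.134, and *CCND2* was last at 0.0298 ± 0.0423 RPKM.

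By the length of all exons, the order changed at the top with mocetinostat. *CDKN1A* led at 140.005 ± 10.8 RPKM, ahead of *CCND1* at 85.4 ± 0.480, *CDKN2A* at 67.5 ± 5.51, and *CDKN2B* at 54.2 ± 4.55 RPKM (SD, n = 3), with no overlap between neighbours. *CDKN2D* (13.03 ± 1.64) and *CCND3* (12.5 ± 1.10) overlapped. *CCND2* came next at 7.27 ± 0.257, and *CDKN1C* (5.33 ± 1.01), *CDKN2C* (5.25 ± 1.09), and *CDKN1B* (4.26 ± 0.317) closed the order with ranges that overlapped between neighbours. These orders depend on the length used. *CDKN2A* has 3885 bases over all exons but 1052 in its longest transcript, against 2996 and 2267 for *CDKN1A*. By longest transcript, *CDKN2A* would lead under both treatments.

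Shares within a family need no scaling between libraries. *CDKN1A* made up 67.4%, 71.5%, and 67.3% of CIP/KIP RPKM in DMSO replicates 1, 2, and 3 and 92.7%, 93.7%, and 94.3% in the mocetinostat replicates, while *CDKN1B* went from 23.0% ± 1.85 to 2.85% ± 0.171 (SD, n = 3). In the INK4 family, *CDKN2B* went from 12.9% ± 0.661 to 38.7% ± 0.774, *CDKN2A* from 69.1% ± 2.01 to 48.2% ± 1.05, and *CDKN2C* from 12.4% ± 1.73 to 3.78% ± 0.888 (SD, n = 3). Among the D cyclins, *CCND1* went from 88.6% ± 1.38 to 81.2% ± 0.800 and *CCND2* from 0.0425% ± 0.0580 to 6.92% ± 0.287, whereas *CCND3* stayed near 11.3% ± 1.33 and 11.9% ± 0.961 (SD, n = 3). The summed level of a family went from 28.2 ± 1.73 to 149.6 ± 11.4 RPKM for CIP/KIP, from 102.2 ± 12.9 to 139.97 ± 10.2 RPKM for INK4, and from 67.9 ± 7.11 to 105.1 ± 0.776 RPKM for the D cyclins (SD, n = 3). Shares and summed levels depend on the length used: with the longest transcript in place of all exons, *CDKN2B* held 4.66% and 17.3% of its family. For *CDKN2A* that length is 1052 bases against 3885 over all exons. Its share and the INK4 sum would therefore be higher by longest transcript.

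**Figure D3:**
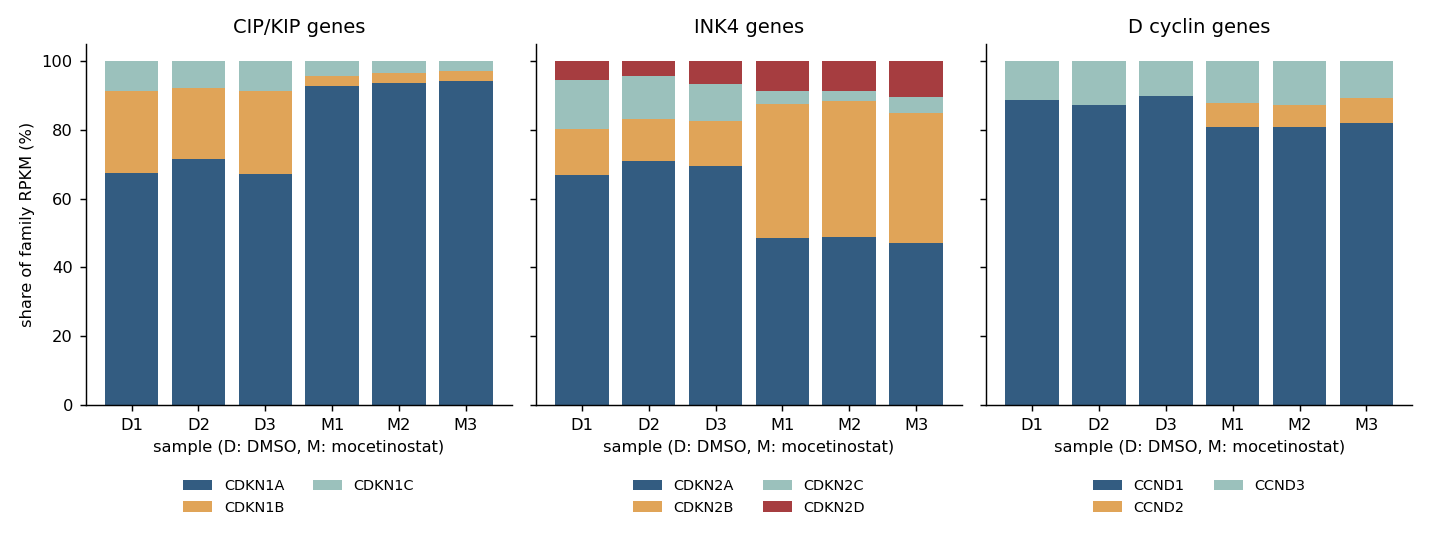
Share of each gene in the summed RPKM of its family (vertical axis, percent) in each of the 6 samples, D1 to D3 for DMSO and M1 to M3 for mocetinostat. *CDKN1A* fills over 92% of the CIP/KIP bar in each mocetinostat sample, *CDKN2B* grows to between 37.9% and 39.4% of the INK4 bar, and *CCND2* goes from at most 0.109% to between 6.59% and 7.11% of the D cyclin bar.

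The RefSeq promoter table (GRCh38.p14) held start sites for 7 of the 10 genes, and not for *CCND1*, *CCND2*, or *CDKN1C*. The 250 bases before the start site are shown for the URGs that matched, *CDKN1A*, *CDKN2B*, and *CDKN2D*, so that their GC boxes can be read beside their changes. They span chr6:36678464-36678713 (plus strand), chr9:22009306-22009555 (minus strand), and chr19:10568980-10569229 (minus strand), and are written 5′ to 3′ along the gene. Capitals mark the GC box GGGCGG, or CCGCCC where it lies on the other strand.
CDKN1A: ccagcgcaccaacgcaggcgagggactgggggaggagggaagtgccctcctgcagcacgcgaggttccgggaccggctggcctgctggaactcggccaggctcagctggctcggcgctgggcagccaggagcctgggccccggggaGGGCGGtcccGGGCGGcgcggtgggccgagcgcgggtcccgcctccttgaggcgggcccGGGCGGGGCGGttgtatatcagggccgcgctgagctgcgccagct
CDKN2B: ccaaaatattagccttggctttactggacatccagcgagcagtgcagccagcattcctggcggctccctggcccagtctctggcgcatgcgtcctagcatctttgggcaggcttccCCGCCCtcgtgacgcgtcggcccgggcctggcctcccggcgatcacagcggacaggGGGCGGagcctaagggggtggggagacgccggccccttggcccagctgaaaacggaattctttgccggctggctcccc
CDKN2D: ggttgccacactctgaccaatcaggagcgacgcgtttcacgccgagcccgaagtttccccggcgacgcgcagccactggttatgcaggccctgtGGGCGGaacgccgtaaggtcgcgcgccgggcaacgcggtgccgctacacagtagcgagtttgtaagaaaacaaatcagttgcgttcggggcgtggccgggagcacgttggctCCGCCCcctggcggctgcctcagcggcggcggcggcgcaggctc
*CDKN1A* had 4 GC boxes in this window, all on the gene strand, of which the last 2 share a base between -45 and -35 from the start. *CDKN2B* and *CDKN2D* had 2 each, in both cases on opposite strands. Of all 35116 promoters in the table, 42.6% held at least 1 GC box in the same window, 24.3% at least 2, and 7.63% at least 4. *CDKN2C*, which fell, had 5 GC boxes before the middle of its 3 start sites, and *CDKN1B*, which also fell, had 1. *CCND3*, which rose, had 5 before its start site at 42048688 and 2 before that at 41941808. *CDKN2A*, which did not pass the test, had 1 before its start site at 21974857. Thus 9 of the 12 start sites of the 7 genes held a GC box, in genes that rose, in genes that fell, and in *CDKN2A*. Such a match is a description of letters and does not show that a factor binds.

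**Figure D4:**
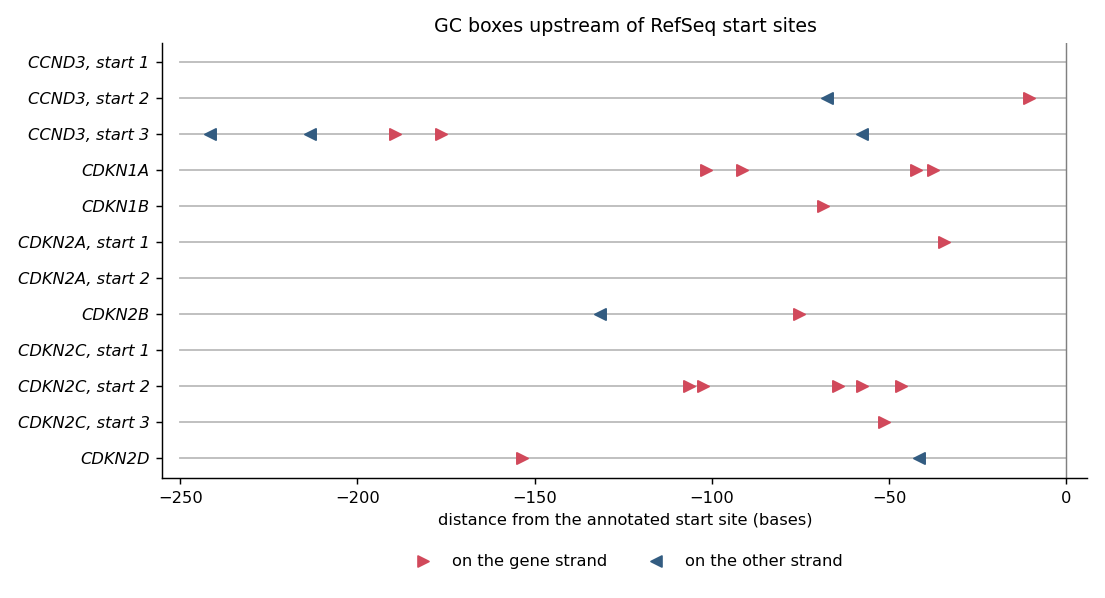
Position of each GC box (triangles) in the 250 bases before the 12 RefSeq start sites of 7 genes; the horizontal axis is the distance from the start site in bases, and start sites of a gene are numbered by coordinate. Red triangles lie on the gene strand and blue ones on the other strand. *CDKN1A* has 4, *CDKN2B* and *CDKN2D* have 2, *CDKN2C* and *CCND3* have up to 5 at a start site, and 3 start sites have none.

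The genes around these inhibitors and cyclins were followed in lists chosen by role, and the counts below are set beside the 32.9% of all genes that rose and the 31.4% that fell. The median log2 fold change of all genes tested was -0.002. Of 11 genes for the G1 kinases and their partners, 2 rose and 4 fell, with a median of -0.003 (7 and 3 relative to *GAPDH*). *CDK4*, the kinase that both D cyclins and INK4 proteins bind, went from 166.98 ± 4.38 to 74.1 ± 8.87 CPM (SD, n = 3); the log2 fold change was -1.20 (edgeR adjusted p = 1.33e-16). Its relative *CDK6* had one of -0.27 (adjusted p = 0.0295), which turned to 0.27 relative to *GAPDH* and lost the call without mocetinostat replicate 2 (-0.19, adjusted p = 0.154). *CDK2* had a log2 fold change of 0.17 that did not pass (edgeR adjusted p = 0.180), but passed without mocetinostat replicate 3 (0.29, adjusted p = 0.0327) and relative to *GAPDH* (0.70). The cyclin A genes went opposite ways: *CCNA2*, the cyclin A of dividing somatic cells, fell from 207.5 ± 9.65 to 54.2 ± 2.56 CPM (log2 fold change -1.93, edgeR adjusted p = 7.43e-27), whereas *CCNA1*, known mainly from the germline, rose from 4.72 ± 1.15 to 26.2 ± 3.19 CPM (SD, n = 3; 2.51, adjusted p = 5.53e-15). *CCNE1*, encoding cyclin E1, rose by 0.54 on the log2 scale, and *CDC25A*, a phosphatase that activates CDK2, fell by 1.02.

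Of 19 genes of the RB family, the E2F factors, and the DREAM complex, 1 rose and 9 fell, with a median of -0.20 (7 and 3 relative to *GAPDH*). *RB1* (0.17, adjusted p = 0.186) and *E2F1* (0.12, edgeR adjusted p = 0.362) did not pass. *E2F7*, a repressor among the E2Fs, rose by 0.52, while the E2F partner *TFDP1* (-1.09), *E2F4* (-1.21), and the DREAM subunit *LIN9* (-1.88) fell. Of 20 S-phase genes regulated by E2F, 16 fell, with a median of -0.50, and *CDC6*, a licensing factor, was the 1 that rose (0.73). The lowest were *RRM1* (-1.36), *MCM7* (-0.94), and *TYMS* (-0.86), which serve nucleotide supply and DNA unwinding. All 10 mitotic CDK1 genes fell, with a median of -0.98, led by *FOXM1* (-1.86), *CCNB1* (-1.79), and *CCNB2* (-1.63). Relative to *GAPDH*, where the median of all genes was 0.53, the median was 0.04 for the S-phase genes, of which 6 rose and 4 fell, and -0.45 for the mitotic genes, of which 1 rose and 6 fell.

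Of 16 tested genes for the ubiquitin ligases that degrade p21, p27, and D cyclins, 1 rose and 12 fell, with a median of -0.39 (4 and 5 relative to *GAPDH*). The shared ligase subunits *CUL1* (-1.36) and *RBX1* (-1.45) were among those that fell, as was *FBXO4*, an F-box gene described for cyclin D1, with 40, 15, and 24 counts in the DMSO replicates and 2, 0, and 3 in the mocetinostat replicates. *FBXO4* passed the expression filter only through the DMSO libraries, so its fall was close to given. The ubiquitin-conjugating *CDC34* rose by 0.42, and lost that call without DMSO replicate 1 (0.27, edgeR adjusted p = 0.0508) and without mocetinostat replicate 2 (0.30, adjusted p = 0.0578).

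Of 22 transcriptional regulators known at these loci, 9 rose and 8 fell, with a median of 0.12 (14 and 2 relative to *GAPDH*). *FOXO1* (2.39) and *KLF4* (1.71), factors known to act on *CDKN1A*, and the Polycomb gene *CBX7* (1.55), known for its silencing of the *CDKN2A* locus, rose most. *CTCF* (-1.16) and the TGF-β signal transducers *SMAD3* (-1.07) and *SMAD4* (-0.51) fell most. *MYC*, known to repress *CDKN1A* and *CDKN2B*, had a log2 fold change of -0.26 (edgeR adjusted p = 0.011), which was 0.27 relative to *GAPDH* and lost its call without mocetinostat replicate 2 (-0.20, adjusted p = 0.0715). Of the HDAC genes whose products mocetinostat inhibits, *HDAC1* had a log2 fold change of 0.24 (adjusted p = 0.0243), which failed the test in 4 of the 6 fits that left out a sample (without DMSO replicate 2 or 3 or mocetinostat replicate 1 or 3), and *HDAC2* one of 0.13 (edgeR adjusted p = 0.154). *HDAC3*, added after its values were seen, rose from 55.4 ± 2.80 to 76.4 ± 8.40 CPM (SD, n = 3; log2 fold change 0.44, edgeR adjusted p = 0.0013).

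**Figure D5:**
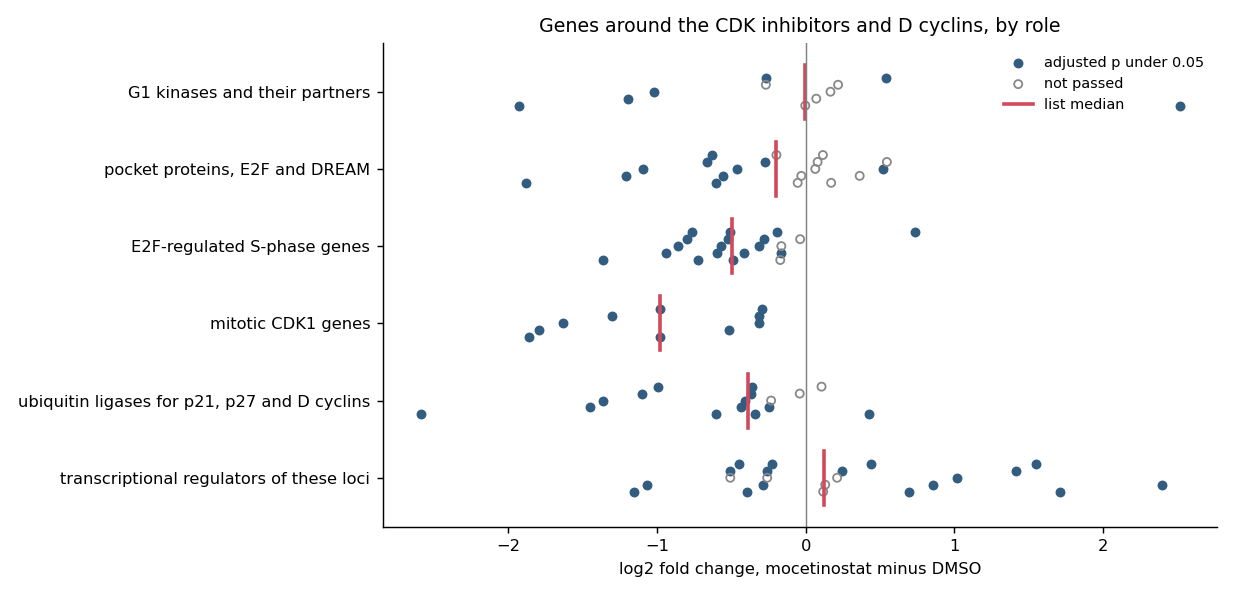
Log2 fold change (horizontal axis) of every tested gene in 6 lists by role; filled points passed the edgeR test at an adjusted p under 0.05, open points did not, and red lines mark list medians. All 10 mitotic genes lie left of 0 with a median of -0.98, and the S-phase genes have a median of -0.50.

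Around the 9 genes that passed the test, 19 nearest or overlapping neighbours were tested, leaving out *CDKN2A* as the neighbour of *CDKN2B*. Of these, 6 passed in the direction of their CDK inhibitor or cyclin gene, 7 passed in the other direction, and 6 did not pass. In the same direction, *ANO1* and *MYEOV* needed the mocetinostat libraries to pass the expression filter. In the other direction, *AP1M2* needed the DMSO libraries. The calls of these genes are a description. Among all genes tested, 64.3% passed in either direction. *SRSF3* (-0.93), 70860 bases from *CDKN1A*, and *PPIL1* (-0.61), 167490 bases from it on the other side, fell while *CDKN1A* rose. The long non-coding RNA *KCNQ1OT1*, 183210 bases from *CDKN1C*, which rose, had a log2 fold change of 0.91 (edgeR adjusted p = 4.88e-12). On the other side *SLC22A18*, 13946 bases away, had one of 1.16 (edgeR adjusted p = 0.00177), which lost its call without mocetinostat replicate 3 (0.77, edgeR adjusted p = 0.0821). In the *CDKN2A* and *CDKN2B* locus, *MTAP*, 30101 bases from *CDKN2A*, rose by 0.50, against 2.04 for *CDKN2B*. *DMRTA1*, 437519 bases from *CDKN2B* on the other side, had a value of 0.84. It lost its call without DMSO replicate 2 (edgeR adjusted p = 0.0864), mocetinostat replicate 1 (adjusted p = 0.0867), or mocetinostat replicate 3 (edgeR adjusted p = 0.0772).

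*FAF1*, 478 bases from *CDKN2C*, had a log2 fold change of -0.01 (edgeR adjusted p = 0.969), while *CDKN2C* fell. *RNF11*, 261639 bases from *CDKN2C* on the other side, had one of 0.17 (edgeR adjusted p = 0.147). *KRI1*, 429 bases from *CDKN2D*, fell by 0.47 while *CDKN2D* rose. *AP1M2*, beyond *CDKN2D*, was at -0.98 and lost its call without DMSO replicate 3 (-0.54, adjusted p = 0.377) or mocetinostat replicate 1 (-0.48, edgeR adjusted p = 0.429). *TAF8* (-0.65) and *BYSL* (-0.53), within 156 and 1888 bases of *CCND3*, fell while *CCND3* rose. Relative to *GAPDH*, the falls of *PPIL1*, *KRI1*, *AP1M2*, *TAF8*, *BYSL*, and *CDKN2B-AS1* did not pass the test.

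*TIGAR*, 2410 bases from *CCND2*, was at 10.7 ± 2.32 CPM with DMSO and 18.4 ± 4.78 CPM with mocetinostat (SD, n = 3), and its log2 value of 0.70 lost its call without mocetinostat replicate 2 (0.54, edgeR adjusted p = 0.0604). *PARP11*, 396323 bases away on the other side of *CCND2*, was at -0.15 (edgeR adjusted p = 0.551). *ANO1*, 331433 bases from *CCND1*, rose from 0.801 ± 0.463 CPM (SD, n = 3, log2 fold change 3.43). On the other side *MYEOV*, 299474 bases away, was at 1.31, a call lost without DMSO replicate 1 (1.15, edgeR adjusted p = 0.055) or mocetinostat replicate 2 (1.04, edgeR adjusted p = 0.0662). Neither *ANO1* (5, 3, and 9 counts with DMSO) nor *MYEOV* (20, 15, and 12) would have passed the expression filter without the mocetinostat libraries. For *ANO1* a rise was close to given. Beside *CDKN1B*, *APOLD1* (-0.31, adjusted p = 0.557) and *CREBL2* (-0.23, edgeR adjusted p = 0.168) did not pass, though *CREBL2* did without mocetinostat replicate 3 (-0.40, adjusted p = 0.0365).

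Genes with the most similar profiles were found by the root mean square difference of mean-centred log2 CPM over the 6 samples, among genes of similar level. They were *PREX1* (0.0603), *ASMTL* (0.0793), and *ENO2* (0.0841) for *CDKN1A*, and *NATD1* (0.062), *EPAS1* (0.0805), and *LTBP1* (0.0985) for *CDKN2B*. For *CCND2* the nearest was *COL4A4* at 0.505, followed by *SCN9A* (0.614) and *NEFH* (0.668), all close to 0 with DMSO. With 1, 3, and 0 DMSO reads of *CCND2*, these larger distances hold counting error and depend on the 0.1 CPM added before the logarithm. They cannot be compared with those of the other genes. The nearest to *CDKN2C* was *MTHFD1L* (0.0424), to *CDKN2D* *AFAP1L1* (0.0826), to *CDKN1C* *PC* (0.0732), and to *CDKN1B* *ZNF507* (0.0176). *AMOTL1* (0.041) was nearest to *CCND1*, *OAF* (0.0586) to *CCND3*, and *SH3GL1* (0.0533) to *CDKN2A*. These distances describe 6 samples that share the same 2 treatments and carry no test.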

How the data were processed

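RNA-Seq was made from TC28a2 chondrocytes treated with DMSO or mocetinostat (3 libraries each). The authors aligned reads to GRCh38 and deposited raw gene counts; the submitters' processing notes name STAR 2.6.1d, featureCounts 1.6.4, and DESeq2 1.20.0. Whether counting used strand is not given in the sources used here. The deposited counts were tested here with edgeR 4.0.16 in R 4.3.3 (TMM, filterByExpr, quasi-likelihood test, Benjamini-Hochberg over 13966 of 60623 genes); the alternatives included DESeq2 1.42.0. The biological coefficient of variation was 9.30%. The procedure was tested on simulated data. RPKM used union exon lengths of GENCODE release 44, which matched 99.5% of gene IDs. Counting intervals cover counting error only, and p-values measure the spread between these samples, all of 1 line.

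The 10 genes and the lists were chosen with earlier results of these data known. The genes of 1 of the 7 pathway lists enter the list totals but are not reported here. Named besides the 10 genes were a fixed set of regulators, up to 3 highest and 3 lowest genes of each list among those that passed, the 3 most similar profiles (mean CPM within 4 times), and the nearest tested neighbours. Cell type marker lists held 11 chondrocyte, 6 epithelial, 5 haematopoietic, and 5 endothelial genes.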

Additional observations from a re-analysis of the deposited data

How the results depend on the processing

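Of the 10 genes, *CDKN1A* and *CDKN2B* kept direction and call in all 15 alternatives and *CCND2* in the 14 that tested it. The setting that left *CCND2* out required 10 counts in every sample, and its DMSO counts were 1, 3, and 0. In the others it could enter through the mocetinostat libraries alone. With *GAPDH* scaling there were 4425 URGs and 284 DRGs in all, 0 DRGs and 1 gene that fell among the 10, and 58 rising and 24 falling genes in the pathway lists (23 and 63 with TMM); *CDKN1B* was at -0.067, *CDKN2A* at 0.45, the ubiquitin ligase gene *MDM2*, *CDK6*, and *MYC* at 0.27, *SMAD4* at 0.033, *CREBL2* at 0.30, *APOLD1* at 0.22, *FAF1* at 0.53, *KRI1* at 0.060, *PARP11* at 0.39, and *BYSL* at 0.0027. Without the expression filter there were 2120 DRGs, 3 URGs among the 10, and 14 rising list genes; *CDKN2A* was at -0.33 (adjusted p = 0.00109), *RB1* at -0.080, *CDK2* at -0.084, *E2F1* at -0.14, *HDAC1* at -0.010, *HDAC2* at -0.12, *RNF11* at -0.084, and *LTO1* at -0.18. Requiring 10 counts in every sample left 1620 URGs and 704 DRGs, with *CDKN2A* at 0.0043 and *FAF1* at 0.072. A test against a fold threshold (glmTreat) gave 465 DRGs, 3 URGs and 0 DRGs among the 10 (3 rose, 0 fell), and 4 rising and 10 falling list genes; *CDKN1B* (-0.60), *CDKN1C* (1.20), *CDKN2C* (-1.25), *CDKN2D* (1.18), *CCND1* (0.51), and *CCND3* (0.71) lost their calls, as a stricter hypothesis was tested. Thinned to the smallest total, 3 URGs and 0 DRGs were left among the 10, and 14 rising and 32 falling list genes; *CDKN1C* (1.61) and *CDKN2D* (0.62) lost their calls and *CDKN2A* was at 0.086 and *FAF1* at 0.17 (0.013 with RLE size factors, 0.0096 with library size only). Beyond those constructions, the cause was not tested. Leaving out 1 sample at a time gave *CDKN2A* -0.22 (without DMSO replicate 1) to -0.031 and *CDK2* -0.018 (without mocetinostat replicate 2) to 0.29; *FAF1* ranged from -0.086 to 0.11, *LTO1* from -0.10 to 0.19, and *PARP11* from -0.33 to 0.098. Without length division and with the longest transcript, *CDKN1A* held 46.9% and 60.3% of its family with DMSO and 88.8% and 92.1% with mocetinostat, *CDKN2B* 14.1% and 4.66%, then 42.1% and 17.3%, and *CCND2* 10.8% and 6.31% with mocetinostat. The samples share only replicate numbers (correlations of same-numbered deviations 0.008, 0.012, and -0.016); with the replicate number as a block there were 2798 URGs and 1133 DRGs, and no call among the 10 genes changed. Thinning also left *CDKN2C* at -0.98, past the test but not a DRG.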

Other observations

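Also on chromosome 11 but not a nearest neighbour of *CDKN1C*, *PHLDA2*, a growth-restraining gene, had a log2 fold change of 0.50 (edgeR adjusted p = 2.53e-05). *IGF2*, a fetal growth factor gene of a separate imprinted domain, held 13, 2, and 18 counts in the DMSO replicates and 122, 42, and 57 counts in the mocetinostat replicates, a log2 fold change of 4.05 (edgeR adjusted p = 1.51e-18). It passed the expression filter only through the mocetinostat libraries, so a rise was close to given. *KCNQ1*, with at most 7 counts in a library, and *H19*, with at most 16, were too low to be tested.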
